A study of Homo sapiens with 6 samples.

Results

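The nephric duct is the epithelial tube that forms from anterior intermediate mesoderm, and the ureteric bud is its outgrowth, which branches into the collecting ducts of the kidney. Both are a separate lineage from the nephron progenitors of the metanephric mesenchyme, which form the filtering units. The mesenchyme secretes GDNF, which acts on the duct through the receptor tyrosine kinase RET and its co-receptor GFRA1, while GATA3 and EMX2 are transcription factors that the duct and bud need. The genes of this lineage followed here were GATA3, EMX2, TFAP2A and TFAP2B (transcription factors), RET and GFRA1 (receptors), KRT8 and KRT18 (the keratin pair of simple epithelia) and CALB1 (a calcium-binding protein of the ureteric bud and distal tubule). These 9 genes were chosen by name as markers of the lineage, with earlier results of these data known. All 9 were found among the 60107 gene IDs of the count table, and all 9 were among the 22613 genes that passed the filter on low counts. The question they address is whether a change of kidney lineage on withdrawal of glutamine goes toward duct.

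RNA was measured by mRNA sequencing in 6 libraries of H9, an established human embryonic stem cell line, collected at the end of day 9 of a directed differentiation to nephron progenitor cells. In 3 libraries the cells had complete medium with glutamine, an amino acid used as a source of carbon and nitrogen. In the other 3 glutamine was withheld from day 0 through day 9, and no other treatment separates the groups. The labels do not say whether replicates were separate cultures, so p-values measure the spread between these libraries, which may be technical. Every library comes from 1 cell line and from bulk RNA, in which fewer cells of a type and less RNA per cell cannot be told apart.

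The libraries held 78220507 to 84746566 counts. Replicate 1 with glutamine stands apart from its group: Pearson's r of its log2 expression across genes was 0.976 with replicates 2 and 3, and 0.991 to 0.993 with the group that lacked glutamine. The tests of the markers and of many other genes named below are therefore given with and without that library. It was picked by its likeness to the other group in these same data, so leaving it out tends to widen differences between the groups. An adjusted p from the remaining 5 libraries describes those libraries and is not an independent test. The labelled cell type was checked against nephron progenitor genes. SIX2, WT1 and SALL1 were present in all libraries, although SIX2 was lower in replicate 1 with glutamine and in the libraries without it (6.57 to 9.70 CPM, a count scaled to the size of its library) than in replicates 2 and 3 with glutamine (34.8 and 27.8 CPM). WT1 and SALL1 were higher in those same libraries. WT1 was at 376, 231 and 225 CPM with glutamine and at 390, 344.5 and 341 CPM without. SALL1 was at 155, 114 and 112 CPM with glutamine and at 170, 154.5 and 145 CPM without. HOXD11 was at 0.542, 0 and 0.0127 CPM with glutamine and at 3.22, 5.33 and 6.05 CPM without. Genes of the mature collecting duct were low: AQP2, the water channel of principal cells, had at most 1 count in a library and KRT7, a keratin of the ureteric bud and collecting duct, at most 5, while AQP3, another water channel, had 78 to 144.

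Of the 9 duct markers, 4 were higher in all 3 libraries without glutamine than in any library with it: GATA3, EMX2, KRT8 and KRT18. None was lower in that sense. Over all tested genes the groups did not overlap for 17.3% in the higher direction and 16.9% in the lower. No marker passed the test across all genes with 6 libraries (edgeR's quasi-likelihood test, Benjamini-Hochberg adjusted p under 0.05), where 0.00442% of the tested genes passed. At an unadjusted p under 0.05, 4 markers were higher (GATA3, CALB1, KRT8 and KRT18) and 0 lower, beside 14.7% and 15% of all tested genes. DESeq2 called the same 4 genes higher and none lower, where it called 7.54% of its genes higher and 6.44% lower. When replicate 1 with glutamine was left out, 6 of the 9 passed edgeR's test, all higher without glutamine (GATA3, EMX2, TFAP2A, KRT8, KRT18 and CALB1), beside 22.3% of genes higher and 19% lower. In those 5 libraries 7 of the 9 were higher without overlap, beside 32.3% of all genes. RET, GFRA1 and TFAP2B did not pass in either fit. The median log2 fold change of the 9 was 0.92 in the fit of 6 libraries, against 0.001 over all tested genes, and 1.19 in the fit of 5, against 0.011.

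**Figure D1:**
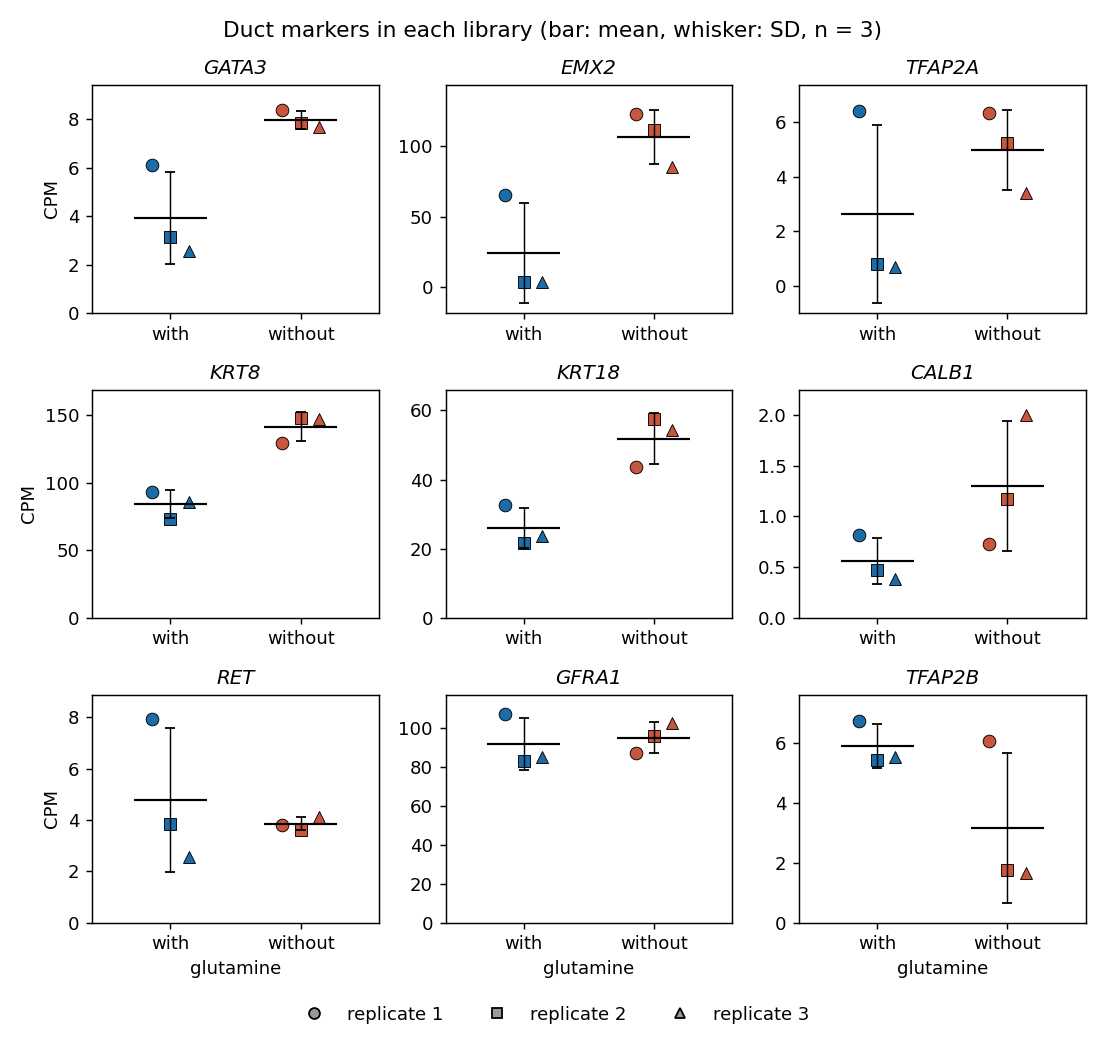
Expression of the 9 duct markers in each library, in CPM on a linear axis, with glutamine on the left and without it on the right of each panel. Symbols are replicates 1, 2 and 3, bars the group mean and whiskers the SD (n = 3). For EMX2, TFAP2A and GATA3, replicate 1 with glutamine (65.2, 6.38 and 6.10 CPM) lies nearer the libraries without glutamine than the other libraries of its group.

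Among the transcription factors, GATA3 (ENSG00000107485), a zinc-finger factor needed for nephric duct growth and for RET expression in the duct, lies on the plus strand of chromosome 10, from 8045378 to 8075203 in GENCODE 29 on GRCh38. Its expression was 6.10, 3.14 and 2.56 CPM with glutamine (replicates 1, 2 and 3, the order used throughout) and 8.41, 7.86 and 7.70 CPM without. The libraries without glutamine lay close together and above all those with it. The group means were 3.93 ± 1.90 and 7.99 ± 0.368 CPM (SD, n = 3), which is a log2 fold change of 1.02 (SE 0.30 and edgeR adjusted p 0.0911). Without replicate 1 with glutamine it rose by 1.49 (SE 0.13 and edgeR adjusted p 1.66e-05). By DESeq2 with all libraries the adjusted p was 0.00511, and over 16 alternatives it ran from 1.66e-05 to 0.291.

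EMX2 (ENSG00000170370), a homeobox factor needed for ureteric bud outgrowth, lies on the plus strand of chromosome 10, from 117542444 to 117549546. It was at 65.2, 3.76 and 3.79 CPM with glutamine and at 122, 111 and 84.9 CPM without. Replicates 2 and 3 with glutamine were low, replicate 1 was more than 10 CPM below the lowest library without glutamine, and the groups did not overlap. The log2 fold change was 2.13 (SE 1.05 and edgeR adjusted p 0.216). Without replicate 1 it was 4.82 (SE 0.17 and edgeR adjusted p 1.02e-07), a 28.1-fold difference of the means, the largest of the 9 in that fit. The adjusted p ran from 1.02e-07 to 0.427 over the alternatives. EMX2 is also a gene of the developing forebrain. Of the 12 forebrain and neural genes listed for comparison, its relative EMX1 had at most 28 counts in a library. Of the 8 tested, 1 was higher (TUBB3) and 2 lower (NEUROG2 and PAX6) without overlap. Without replicate 1 with glutamine 9 were tested, of which 2 rose and the same 2 fell. NEUROG2, with at most 72 counts in a library, was at 0.160, 0.448 and 0.916 CPM with glutamine and at 0.116, 0.0383 and 0 CPM without. In the fit of 5 libraries the log2 fold changes of NEUROG2 and PAX6 were -3.63 and -0.43 (edgeR adjusted p 0.0011 and 0.0255). TUBB3, a neuronal tubulin, was at 1.49, 1.02 and 0.904 CPM with glutamine and at 2.03, 2.49 and 2.37 CPM without (1.01, SE 0.22 and edgeR adjusted p 0.0706), and rose by 1.25 (edgeR adjusted p 0.000483) in the fit of 5 libraries. DCX, a microtubule protein of young neurons named after its values were seen, was at 63.4, 18.4 and 19.2 CPM with glutamine and at 51.0, 49.1 and 75.8 CPM without, so the groups overlapped. Its log2 fold change was 0.80 (SE 0.48 and edgeR adjusted p 0.297), and it rose by 1.64 (edgeR adjusted p 7.54e-05) in the fit of 5. The part of such cells in the level of EMX2 was not tested.

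TFAP2A (ENSG00000137203), an AP-2 factor of the nephric duct, surface ectoderm and neural crest, lies on the minus strand of chromosome 6, from 10393186 to 10419659. It was at 6.38, 0.807 and 0.687 CPM with glutamine and at 6.31, 5.22 and 3.41 CPM without. Replicate 1 with glutamine was the highest of all 6 libraries, so the groups overlapped. The log2 fold change was 0.92 (SE 0.77 and edgeR adjusted p 0.44), and without that library TFAP2A rose by 2.74 (SE 0.30 and edgeR adjusted p 8.36e-05). Over the alternatives the adjusted p ran from 8.36e-05 to 0.755.

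TFAP2B (ENSG00000008196), the AP-2 factor of the duct and distal nephron that is also made in neural crest, lies on the plus strand of chromosome 6, from 50818723 to 50847613. It was at 6.77, 5.44 and 5.56 CPM with glutamine and at 6.07, 1.76 and 1.67 CPM without, so replicate 1 without glutamine lay among the libraries with glutamine and the other two lay below all of them. The log2 fold change was -0.89 (SE 0.47 and edgeR adjusted p 0.244), and -0.77 (SE 0.44 and edgeR adjusted p 0.187) without replicate 1 with glutamine. Leaving out replicate 1 without glutamine gave -1.78 with an edgeR adjusted p of 0.0613, the lowest of a range up to 0.508, and groups that no longer overlapped. Leaving out both gave a called log2 fold change of -1.68 (edgeR adjusted p 2.74e-07), in a setting chosen after the data were seen.

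Promoter sequence was available in the RefSeq tables (GRCh38.p14) for 7 of the 9 genes, all but KRT18 and CALB1. The 250 bases before the start are shown for GATA3 (its first listed start) and TFAP2A, which were both higher without glutamine once replicate 1 with glutamine was left out and whose windows touch no GENCODE exon. Capitals mark a match to the AP-2 motif GCCNNNGGC, searched on both strands, and the GATA motif AGATAA was searched in the same way. The GATA3 window is chr10:8045083-8045332 on the plus strand and the TFAP2A window chr6:10419660-10419909 on the minus strand.
GATA3: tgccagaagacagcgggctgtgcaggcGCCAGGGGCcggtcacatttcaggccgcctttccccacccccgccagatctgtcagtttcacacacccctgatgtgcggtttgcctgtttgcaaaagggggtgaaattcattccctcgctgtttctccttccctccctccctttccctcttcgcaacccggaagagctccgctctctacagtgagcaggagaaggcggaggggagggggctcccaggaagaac
TFAP2A: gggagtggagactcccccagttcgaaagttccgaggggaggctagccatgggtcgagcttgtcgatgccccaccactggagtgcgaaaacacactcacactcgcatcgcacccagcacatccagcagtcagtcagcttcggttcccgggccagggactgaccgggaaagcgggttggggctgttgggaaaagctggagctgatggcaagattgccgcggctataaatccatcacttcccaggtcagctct
The match in GATA3 begins 223 bases before the start, and the TFAP2A window holds neither motif. KRT8 meets the same conditions, and its window, which is not shown, also holds neither motif. Over the 17 listed windows of these genes, 5 windows in 3 genes (GATA3, RET and GFRA1) held the AP-2 letters and 0 held the GATA letters. Of all 35116 windows of that length, 19.8% held the first and 9.17% the second.

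Of the receptors, neither passed the test in either fit. RET (ENSG00000165731), the GDNF receptor of the duct and bud tip, lies on the plus strand of chromosome 10, from 43077027 to 43130351. It was at 7.92, 3.84 and 2.54 CPM with glutamine and at 3.80, 3.61 and 4.11 CPM without. Replicate 1 with glutamine was the highest, and the libraries without glutamine lay within the range of those with it. The log2 fold change was -0.31 (SE 0.38 and edgeR adjusted p 0.599), and it was 0.27 (SE 0.17 and edgeR adjusted p 0.242) without that library, so that library set its sign. The adjusted p of RET ran from 0.242 to 0.812 over the alternatives. With replicate 1 with glutamine and also replicate 2 or 3 of that group left out, its log2 fold change was 0.592 or 0.007. GFRA1 (ENSG00000151892), the co-receptor that binds GDNF, lies on the minus strand of chromosome 10, from 116056925 to 116273467. It was at 107, 83.3 and 85.1 CPM with glutamine and at 87.0, 95.7 and 103 CPM without, and the groups overlapped. Its log2 fold change was 0.05 (SE 0.12 and edgeR adjusted p 0.796), and 0.18 (SE 0.08 and edgeR adjusted p 0.106) without replicate 1 with glutamine, with a range of 0.106 to 0.989 over the alternatives. Leaving out both replicate 1 libraries gave a called log2 fold change of 0.24 (edgeR adjusted p 0.0107) for GFRA1, in a setting chosen after the data were seen.

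The keratin pair had the lowest adjusted p of the 9 in the fit of 6 libraries. KRT8 (ENSG00000170421), the type II keratin of simple epithelia, lies on the minus strand of chromosome 12, from 52897187 to 52949954. It was at 93.4, 73.1 and 85.7 CPM with glutamine and at 129, 148 and 148 CPM without. The means were 84.1 ± 10.3 and 142 ± 10.8 CPM (SD, n = 3), and no library overlapped with the other group. The log2 fold change was 0.75 (SE 0.11 and edgeR adjusted p 0.068), and 0.84 (SE 0.09 and edgeR adjusted p 9.95e-05) without replicate 1 with glutamine.

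KRT18 (ENSG00000111057), its type I partner, lies on the plus strand of chromosome 12, from 52948871 to 52952901. It was at 32.5, 21.7 and 23.8 CPM with glutamine and at 43.7, 57.6 and 54.3 CPM without, again with no overlap. The means were 26.0 ± 5.75 and 51.9 ± 7.29 CPM (SD, n = 3), which is a log2 fold change of 0.997 (SE 0.18 and edgeR adjusted p 0.068) and of 1.19 (SE 0.12 and edgeR adjusted p 4.79e-05) without that library. Over 16 other settings and subsets, the edgeR, limma or DESeq2 adjusted p ran from 4.65e-06 to 0.259 for KRT8 and from 9.56e-06 to 0.259 for KRT18, and the log2 fold changes from 0.65 to 0.84 and from 0.87 to 1.19.

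The annotated spans of KRT8 and KRT18 overlap by 1084 bases on opposite strands, and both genes have many processed pseudogenes, so reads could be shared between them in a way the sources used here do not state. The 50 annotated KRT8 pseudogenes in the table together held 6.10% to 13.9% as many counts as KRT8 in a library, and the 67 KRT18 pseudogenes 4.83% to 12.5% as many as KRT18. The pseudogene with the most counts, KRT8P12, had 617, 528 and 541 counts with glutamine and 522, 489 and 528 without.

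CALB1 (ENSG00000104327), the calbindin of the ureteric bud and distal tubule, lies on the minus strand of chromosome 8, from 90058608 to 90095475 and was the weakest of the 9. It had 66, 37 and 30 counts with glutamine and 63, 92 and 157 without, or 0.813, 0.474 and 0.382 CPM against 0.732, 1.17 and 2.00 CPM. Replicate 1 without glutamine lay below replicate 1 with it, so the groups overlapped. The log2 fold change was 1.21 (SE 0.44 and edgeR adjusted p 0.132), and CALB1 rose by 1.59 (SE 0.44 and edgeR adjusted p 0.0165) without replicate 1 with glutamine. In that fit the call was lost with no filter on low counts (edgeR adjusted p 0.0766), and when replicate 2 or 3 with glutamine was left out as well (0.0793 and 0.109). Over 16 alternatives to the fit of 6 libraries, its adjusted p ran from 0.0165 to 0.35.

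**Figure D2:**
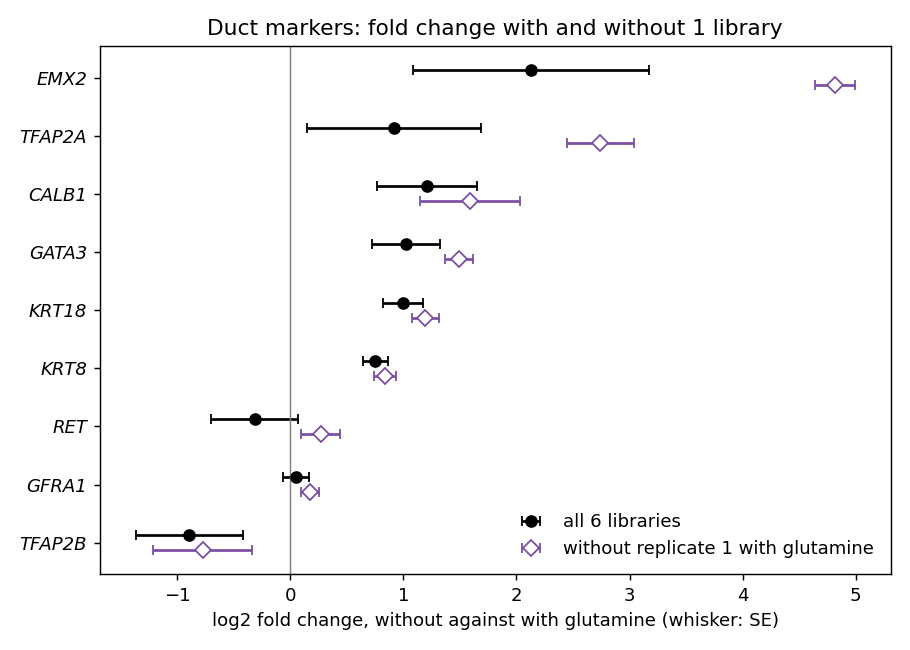
Log2 fold change of each duct marker, without against with glutamine, on the horizontal axis. Filled circles are the fit of all 6 libraries, open diamonds the fit without replicate 1 with glutamine, and whiskers the SE. EMX2 moves from 2.13 to 4.82 and TFAP2A from 0.92 to 2.74 when that library is left out, whereas KRT8 moves from 0.75 to 0.84.

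How far replicate 1 with glutamine had moved toward the other group differed between the markers. On a scale of log2 CPM from the mean of replicates 2 and 3 with glutamine (0) to the mean of the libraries without glutamine (1), it lay at 0.29 for KRT8, 0.44 for KRT18, 0.62 for CALB1, 0.74 for GATA3, 0.86 for EMX2 and 1.15 for TFAP2A. The keratins thus kept this library nearer its own group and the transcription factors, TFAP2B apart, did not. RET, GFRA1 and TFAP2B passed in neither fit, and no position is read for them.

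Levels of different genes were compared per length, as CPM per kilobase of all annotated exons, which understates genes with long unused exons. Without glutamine the order was EMX2 (32.5 ± 5.90), KRT8 (20.6 ± 1.57), KRT18 (16.1 ± 2.27), GFRA1 (9.82 ± 0.811), GATA3 (2.33 ± 0.107), TFAP2A (0.602 ± 0.177), RET (0.556 ± 0.0366), TFAP2B (0.515 ± 0.409) and CALB1 (0.182 ± 0.0901; SD, n = 3). From EMX2 down to TFAP2A each gene was above the next in every library, and the ranges of the last 4 overlapped with their neighbours. With glutamine the order began with KRT8 (12.2 ± 1.49), GFRA1 (9.49 ± 1.37) and KRT18 (8.07 ± 1.79). EMX2 came next at 7.44 ± 10.9, and the range of every gene overlapped with that of its neighbour in the order. GFRA1 was thus well above RET per length in both groups.

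Transcripts annotated within or across the markers were examined because the strand setting of the counting is not given in the sources used here. EMX2OS, a noncoding gene that overlaps EMX2 by 2625 bases on the opposite strand, was at 92.2, 6.35 and 6.92 CPM with glutamine and at 133, 117 and 102 CPM without. From high to low, the 6 libraries stood in the same order as for EMX2. Its log2 fold change was 1.74 (SE 0.97 and edgeR adjusted p 0.262), and 4.15 (edgeR adjusted p 6.79e-08) without replicate 1 with glutamine. GATA3-AS1, opposite to GATA3, was at 0.801, 0.141 and 0.255 CPM with glutamine and at 1.91, 1.07 and 0.802 CPM without, a log2 fold change of 1.65 (SE 0.58 and edgeR adjusted p 0.121). It rose by 2.68 (edgeR adjusted p 0.00207) without replicate 1 with glutamine. TFAP2A-AS1 had at most 14 counts in a library. Without strand, reads of such pairs cannot be told apart.

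**Figure D3:**
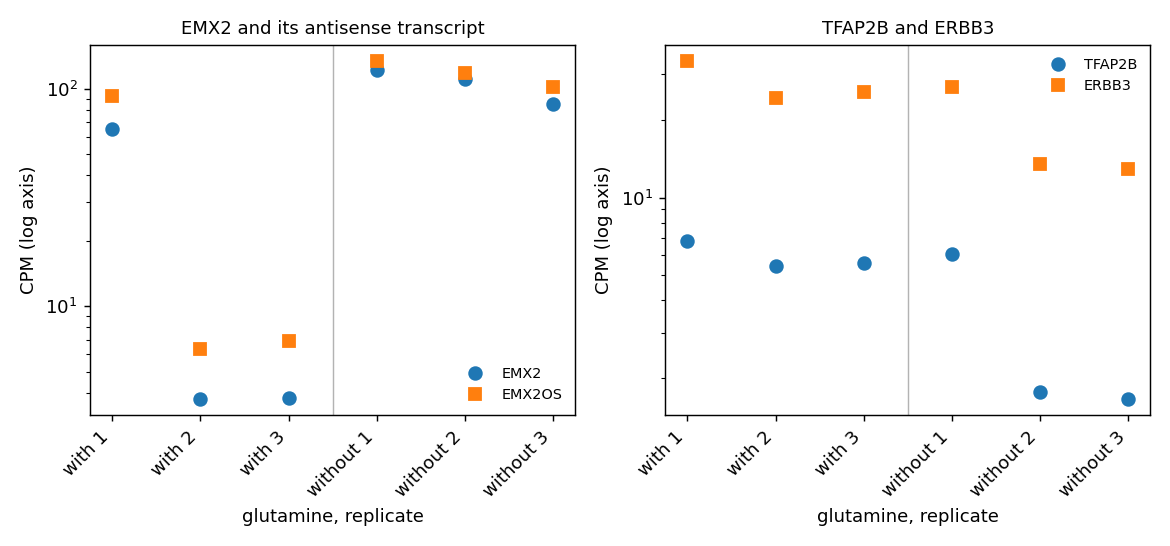
Expression in each library, in CPM on a log axis, of EMX2 and EMX2OS (left panel) and of TFAP2B and ERBB3, whose profile is near to it (right panel). The vertical line separates libraries with and without glutamine. EMX2 and EMX2OS are low in replicates 2 and 3 with glutamine, and TFAP2B and ERBB3 are lowest in replicates 2 and 3 without glutamine.

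The genes of nearest profile were found by the root mean square difference of log2 CPM, each gene centred on its mean over the 6 libraries, among 13883 protein-coding genes with a mean of at least 50 counts. For GATA3 they were RAPGEF3, MBP and HPGD, at 0.068, 0.084 and 0.087. For RET they were CEMIP (0.155), FAM20A and ACSBG1 (both 0.197), each highest in replicate 1 with glutamine. For TFAP2B they included ERBB3 (0.347), a neuregulin receptor of neural crest and Schwann cells. ERBB3 was at 33.6, 24.4 and 25.6 CPM with glutamine and at 26.9, 13.6 and 12.9 CPM without, so it too was higher in replicate 1 without glutamine than in the other two, and the groups overlapped. Its log2 fold change was -0.65 (SE 0.29 and edgeR adjusted p 0.189), and -0.48 (edgeR adjusted p 0.169) in the fit of 5 libraries.

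Genes of GDNF and RET signalling other than the markers numbered 27, of which 26 were tested. None passed edgeR's test with 6 libraries. Without overlap 11 were higher and 3 lower (SOX9, ROBO2 and GFRA2), and 11 higher and 6 lower passed without replicate 1 with glutamine. Over all tested genes these shares were 17.3% and 16.9% without overlap and 22.3% and 19% called in the fit of 5, which holds for each list below. The list's median log2 fold change was 0.24. GDNF, the ligand made by the mesenchyme, was at 20.9, 9.46 and 8.45 CPM with glutamine and at 33.3, 38.9 and 28 CPM without, a log2 fold change of 1.37 (SE 0.34 and edgeR adjusted p 0.0762). ETV4, an ETS factor downstream of RET in the bud tip, was at 66.6, 37.7 and 33.8 CPM with glutamine and at 104, 117 and 100 CPM without (1.22, SE 0.25 and edgeR adjusted p 0.0689). MYB, another gene downstream of RET, was at 7.84, 4.34 and 4.19 CPM with glutamine and at 10.7, 11.4 and 11.2 CPM without (1.03, SE 0.24 and edgeR adjusted p 0.0722). All 3 rose in the fit without replicate 1 with glutamine, at edgeR adjusted p of 6.58e-06, 1.57e-06 and 6.12e-06. Among genes chosen after their values were seen, ETV5, which acts with ETV4, had a log2 fold change of 0.04 (edgeR adjusted p 0.825), or -0.05 in the fit of 5 (edgeR adjusted p 0.597), and DUSP6, a feedback phosphatase of the pathway, one of -0.30 (edgeR adjusted p 0.407), and fell by 0.53 (edgeR adjusted p 0.00209) without replicate 1 with glutamine.

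Of 26 further genes of the duct and collecting duct, 23 were tested, none passed with 6 libraries, and 8 were higher and 0 lower without overlap. Their median log2 fold change was 1.05. Without replicate 1 with glutamine 18 rose and 2 fell, WNT7B and ELF3 (-1.41 and -0.87, edgeR adjusted p 0.00161 and 0.00206). With 6 libraries both overlapped between groups. WNT7B was at 0.394, 0.896 and 0.904 CPM with glutamine and at 0.430, 0.306 and 0.267 CPM without (-1.11, SE 0.38 and edgeR adjusted p 0.118). SCNN1G, a subunit of the epithelial sodium channel, was at 1.44, 0.0384 and 0 CPM with glutamine and at 1.81, 1.86 and 1.66 CPM without (edgeR adjusted p 0.222, and 3.68e-06 in the fit of 5 libraries). LHX1, which marks intermediate mesoderm and early nephrons as well as the duct, had a log2 fold change of 2.07 (SE 1.02 and edgeR adjusted p 0.216), and it rose by 4.63 (edgeR adjusted p 1.93e-07) in the fit of 5. The duct genes WNT9B, AQP2 and FOXI1 were too low to be tested, with at most 8 counts in a library, so a count of duct genes here leaves them out.

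Genes of epithelial junctions and polarity were examined because KRT8 and KRT18 are made in epithelia. Of 29 genes 28 were tested, 0 passed with 6 libraries, and 16 were higher and 1 lower without overlap. The median log2 fold change was 1.17, and without replicate 1 with glutamine 22 rose and 1 fell. CLDN3, a tight junction protein, was at 0.912, 0.141 and 0.191 CPM with glutamine and at 4.01, 1.74 and 1.36 CPM without (2.51, SE 0.68 and edgeR adjusted p 0.0829), and rose by 3.84 (edgeR adjusted p 0.00135) in the fit of 5. CRB3, a polarity protein, was at 0.394, 0.0256 and 0.0382 CPM with glutamine and at 1.07, 0.638 and 0.904 CPM without (2.48, SE 0.65 and edgeR adjusted p 0.0806), with an edgeR adjusted p of 6.99e-05 in the fit of 5. ST14, a membrane serine protease of epithelia, was at 4.33, 0.243 and 0.496 CPM with glutamine and at 8.46, 6.87 and 6.24 CPM without (2.08, SE 0.79 and edgeR adjusted p 0.14), and rose by 4.28 (edgeR adjusted p 2.02e-06) in the fit of 5. CDH1, E-cadherin, named after its values were seen, was at 20.9, 0.640 and 0.573 CPM with glutamine and at 28.01, 28.7 and 23.9 CPM without (1.86, SE 1.13 and edgeR adjusted p 0.299), and rose by 5.47 (edgeR adjusted p 3.1e-08) in the fit of 5. KRT19, another simple keratin, overlapped between groups, with a log2 fold change of 0.34 (SE 0.21 and edgeR adjusted p 0.302), and of 0.17 (edgeR adjusted p 0.386) in the fit of 5.

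**Figure D4:**
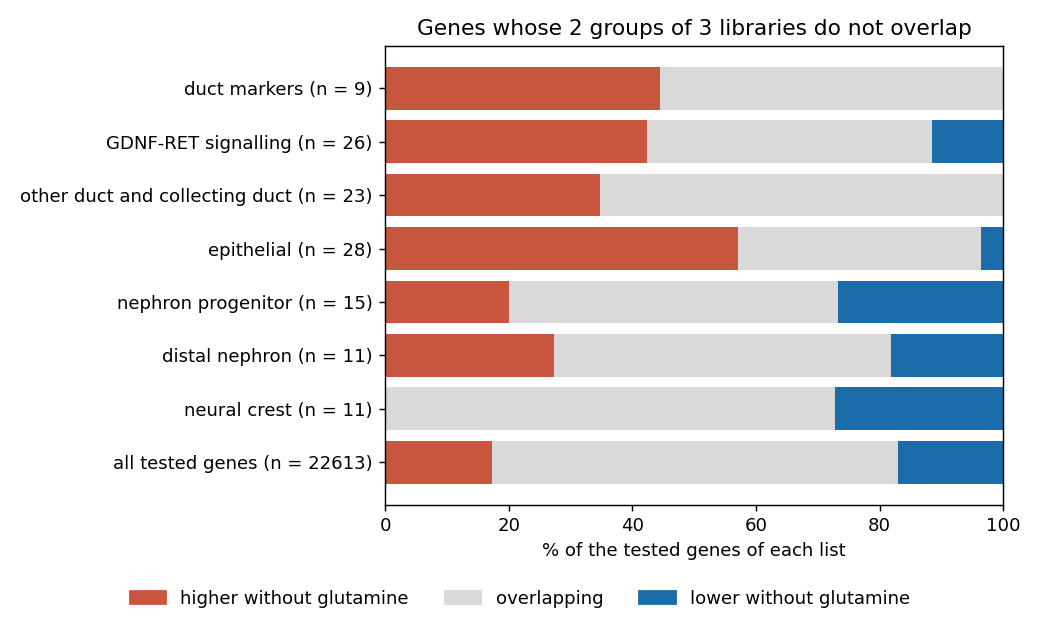
Share of the tested genes of each list, in percent, whose libraries without glutamine all lie above (red) or all below (blue) those with glutamine. Grey is the share that overlaps. The duct markers have 4 of 9 higher and 0 lower, the epithelial list 16 of 28 higher and 1 lower, and neural crest genes 0 of 11 higher and 3 lower.

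Several of the markers are made in other cell types, so lists of these were examined. Of 15 nephron progenitor genes, 3 were higher and 4 lower without overlap, with a median log2 fold change of -0.20. Without replicate 1 with glutamine 6 rose and 9 fell. WT1 and SALL1 were among those that rose (0.66 and 0.47, edgeR adjusted p 0.000147 and 0.00123). SIX2 was among those that fell (-1.92, edgeR adjusted p 4.77e-06). Of 14 distal nephron genes 11 were tested, with 3 higher and 2 lower (IRX2 and TRPV5) without overlap. Without replicate 1 with glutamine 6 rose and 1, IRX2, fell (-0.47, edgeR adjusted p 0.00377). TMEM52B was at 1.07, 0.0128 and 0.0255 CPM with glutamine and at 1.21, 1.28 and 1.11 CPM without (edgeR adjusted p 0.239, and 3.13e-06 in the fit of 5). UMOD was at 0 in every library and SLC12A3 had at most 4 counts. The list's summed level was 52.2 to 94.6 CPM with and 98.3 to 103 CPM without glutamine. Most of it came from MECOM, and a further part from POU3F3 in all libraries but replicates 2 and 3 with glutamine. Each of these genes overlapped between groups. MECOM was at 55.2, 34.5 and 36.6 CPM with glutamine and at 57.2, 55.05 and 61.4 CPM without. Its log2 fold change was 0.46 (SE 0.18 and edgeR adjusted p 0.14), and it rose by 0.71 (edgeR adjusted p 9.25e-05) in the fit of 5. POU3F3 was at 23.6, 0.36 and 0.51 CPM with glutamine and at 29.05, 28.7 and 19.9 CPM without. Its log2 fold change was 1.66 (SE 1.22 and edgeR adjusted p 0.38), and it rose by 5.90 (edgeR adjusted p 3e-07) in the fit of 5.

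Of 13 neural crest genes 11 were tested, with 0 higher and 3 lower without overlap (NGFR, the low-affinity neurotrophin receptor, among them), and SOX10, the defining factor of migrating crest, was at 0 in every library. The list's summed level was 472 to 654 CPM with and 346 to 422 CPM without glutamine. Most of it came from SNAI2, ETS1 and PAX3, each of which overlapped between groups. Without replicate 1 with glutamine 10 of the 11 fell, SNAI2, ETS1 and PAX3 among them. NGFR was at 10.7, 20.4 and 16.9 CPM with glutamine and at 9.88, 8.63 and 8.99 CPM without (-0.80, SE 0.23 and edgeR adjusted p 0.0856), and fell by 1.02 (edgeR adjusted p 6.62e-05) in the fit of 5. The part of neural crest genes in the level of TFAP2B was not tested.

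For amnion and trophoblast, where GATA3, TFAP2A, KRT8 and KRT18 are made, 8 of 19 genes were tested, with 1 higher (GATA2) and 0 lower without overlap. Without replicate 1 with glutamine 9 were tested, of which 3 rose, GATA2 among them (2.01, edgeR adjusted p 2.77e-05), and 3 fell. The defining genes SIGLEC6 and XAGE2 were at 0 in every library, GABRP had at most 1 count and CGA at most 2. The list's summed level was 27.8 to 155 CPM with and 153 to 242 CPM without glutamine, most of it from IGFBP3, a gene of many tissues, at 145, 17.2 and 15.7 CPM with and 142, 170 and 233 CPM without (1.61, SE 0.84 and edgeR adjusted p 0.236), which rose by 3.47 (edgeR adjusted p 1.38e-06) in the fit of 5. TFAP2C, the AP-2 factor of trophoblast, was at 2.02, 3.74 and 3.81 CPM with and 2.12, 0.881 and 0.815 CPM without (-1.31, SE 0.41 and edgeR adjusted p 0.101), and fell by 1.54 (edgeR adjusted p 0.00321) in the fit of 5. For surface ectoderm 3 of 7 genes were tested, with 0 higher and 0 lower without overlap. In the fit of 5, 1 rose, GRHL3 (1.30, edgeR adjusted p 0.0191), and 0 fell. The list's summed level was 1.02 to 1.42 CPM with and 1.39 to 1.82 CPM without, KRT5 had at most 2 counts and KRT14 at most 1.

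Of 7 relatives of the markers 4 were tested, with GATA4 and GATA6 higher and GATA5 and TFAP2E lower without overlap, and all 4 passed in those directions in the fit of 5. GATA6 was at 7.71, 2.04 and 1.72 CPM with glutamine and at 13.2, 12.1 and 15.4 CPM without (log2 fold change 1.82, SE 0.52 and edgeR adjusted p 0.0879), and rose by 2.86 (edgeR adjusted p 8.15e-07) in the fit of 5. GATA4 was low, with 15, 4 and 6 counts with glutamine against 27, 17 and 21 (1.33, SE 0.42 and edgeR adjusted p 0.102; 2.04 with adjusted p 0.00359 in the fit of 5). TFAP2E had a log2 fold change of -0.72 (SE 0.19 and edgeR adjusted p 0.0808), and of -0.73 (edgeR adjusted p 0.0182) in the fit of 5. TFAP2D, which lies near TFAP2B, was at 0 in every library.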

How the data were processed

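Both kinds of deposited file were read: raw counts for each Ensembl gene, and counts normalized by the authors, handled as a signal. Each deposited signal column equals the raw count divided by 1 constant per library. The submitters' processing notes name STAR 2.5.2b, cutadapt, Trim Galore, FastQC, DESeq2 and GRCh38. The counting program, annotation and strand setting are not given in the sources used here. The column headings speak of days 0 and 9, but by the labels every sample is from day 9. Columns were matched through each sample's description, on which every direction rests.

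Symbols, positions and exon lengths came from GENCODE 29 on GRCh38, which matched 56531 of 60107 IDs. The test on counts was the quasi-likelihood F test of edgeR 4.0.16 in R 4.3.3 (legacy and robust set to FALSE) after filterByExpr and TMM, adjusted p by Benjamini-Hochberg over 22613 genes, threshold 0.05. The SE is the log2 fold change over the square root of F. CPM uses TMM-scaled library sizes. DESeq2 1.42.0 adjusted over 21759 genes, and limma 3.58.1 was a further alternative. A library's position used log2 of CPM plus 0.05.

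The members and lists were chosen with earlier results of these data known. All members are named. Of each other list, the rule named the 3 called genes of lowest adjusted p or, where fewer were called, at most 3 of largest absolute log2 fold change among genes without overlap and whose higher group averaged 50 counts or more. List members at or near 0 could be named as such. For likeness the prior count of log2 CPM was 2. Genes named outside this rule were chosen after their values were seen. Some genes that the rule names are not reported here.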

Additional observations from a re-analysis of the deposited data

How the results depend on the processing

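The count of called genes over all genes was 1 and became 0 under upper quartile scaling, library size only, edgeR's legacy setting, limma-voom and the replicate block, 2 without a filter and when limma-trend was run on the deposited normalized counts, and 3041 under DESeq2. Leaving out 1 library gave 0 to 9573, the highest without replicate 1 with glutamine and 17 without replicate 1 without glutamine. The count of duct markers called was 0 in all of these but 4 under DESeq2 and 6 without replicate 1 with glutamine (0 to 6 over the fits that leave out 1 library). Markers higher without overlap numbered 4 to 7 over those fits and 4 under every scaling, with 7 of 9 beside 32.3% of all genes where replicate 1 with glutamine was left out. Markers lower without overlap numbered 0 to 1, the 1 being TFAP2B without replicate 1 without glutamine. The markers' median log2 fold change ran from 0.653 to 1.193 over the same fits. The cause of these shifts was not tested.

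In the fit without replicate 1 with glutamine, 5 to 8 markers were called under 14 settings chosen after seeing the data. With the replicate block there 8 were called, GFRA1 at 0.238 and TFAP2B at -1.678 among them. In that setting replicate 1 without glutamine has no partner of its number and does not bear on the fold change. The setting is thus close to leaving out both replicate 1 libraries, where TFAP2B was at -1.677. Same-numbered libraries did not visibly deviate together (correlations of -0.02, 0 and 0.03). With 3 libraries per group, and replicate 1 with glutamine far from its group, these values cannot settle whether the numbers mark pairs. With all libraries the replicate block called 0 markers at a median of 1.01.

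RET changed sign in 1 of 16 alternatives (from -0.618 to 0.27 with 1 library left out) and GFRA1 in 3 (from -0.023 to 0.179). The median over all genes shifted by at most 0.044 between scalings. Depth limits CALB1 most, at 30 to 157 counts.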
